A study of Mus musculus with 4 samples.

Results

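The 10 genes described here, *Atf3*, *Jun*, *Sox11*, *Klf6*, *Gadd45a*, *Gap43*, *Stmn4*, *Sprr1a*, *Gal* and *Ecel1*, are associated with neuronal injury and axon regeneration, and were taken by symbol from the 23420 symbols counted in mouse prefrontal cortex (PFC). All 10 were present in the count tables. RNA-seq was performed on 4 samples of bulk PFC lysate from C57BL6/J mice, 2 labelled GFP-AAV9 injected (control) and 2 labelled shRNA_ASH1L-AAV9 injected (*Ash1L* shRNA). The labels of the groups differ in the virus alone, which does not show that nothing else differed. The series gives the mice as 6 to 8 weeks old, with 3 knockdown and 2 control mice, whereas the paper's methods pool tissue of 3 mice per sample, give a younger age at injection and describe the control virus as scrambled shRNA. A single hairpin was expressed from the U6 promoter, which is not restricted to neurons, in a GFP-tagged AAV vector. Total RNA came from punches with GFP fluorescence, so that infected and uninfected cells were sequenced together, and fewer cells of a type cannot be told apart from less RNA per cell.

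When an axon is cut or a neuron is otherwise damaged, the kinase DLK and its target JNK activate the transcription factor Jun, and Atf3, a bZIP factor that is nearly silent in healthy neurons, is induced and pairs with it. Sox11 and Klf6 belong to the same program. Its products include growth cone proteins, neuropeptides, peptidases and cytokine signals. The program is best known from sensory and motor neurons of the peripheral nervous system, where it accompanies regrowth of the axon. In the adult cortex it is weaker, and several of its genes also respond to neuronal activity or are expressed in glia and vessels.

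Promoter sequences of the factors *Atf3*, *Jun*, *Sox11* and *Klf6* and of *Sprr1a*, a target of the program, are shown first, because these carried a binding motif of the ATF and JUN families. Each run is the 250 bases before the RefSeq start of the gene (GRCm38.p6), 5′ to 3′ on the gene's strand, at chr1:191183334-191183583 (minus strand) for *Atf3*, chr4:95052223-95052472 (minus) for *Jun*, chr12:27342719-27342968 (minus) for *Sox11*, chr13:5861239-5861488 (plus) for *Klf6* and chr3:92485882-92486131 (minus) for *Sprr1a*. For *Atf3* this run lies inside the annotated span of the gene, whose 5′ end is at 191218039, and the sequence before that end was not searched. Capitals mark matches to the motifs named after the sequences.
Atf3: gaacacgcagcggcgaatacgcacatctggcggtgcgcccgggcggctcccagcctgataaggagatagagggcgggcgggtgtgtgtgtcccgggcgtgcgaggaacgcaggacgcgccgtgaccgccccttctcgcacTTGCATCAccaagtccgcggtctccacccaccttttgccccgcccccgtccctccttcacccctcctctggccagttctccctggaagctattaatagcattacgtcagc
Jun: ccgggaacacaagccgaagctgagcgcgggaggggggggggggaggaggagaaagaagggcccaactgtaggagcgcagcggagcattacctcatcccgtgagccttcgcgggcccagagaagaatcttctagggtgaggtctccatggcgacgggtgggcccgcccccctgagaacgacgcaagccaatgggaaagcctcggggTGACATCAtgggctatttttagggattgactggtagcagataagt
Sox11: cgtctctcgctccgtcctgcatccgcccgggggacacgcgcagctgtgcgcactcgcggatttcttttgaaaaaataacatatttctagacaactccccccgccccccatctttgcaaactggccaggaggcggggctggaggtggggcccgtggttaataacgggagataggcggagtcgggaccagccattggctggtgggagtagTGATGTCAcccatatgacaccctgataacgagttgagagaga
Klf6: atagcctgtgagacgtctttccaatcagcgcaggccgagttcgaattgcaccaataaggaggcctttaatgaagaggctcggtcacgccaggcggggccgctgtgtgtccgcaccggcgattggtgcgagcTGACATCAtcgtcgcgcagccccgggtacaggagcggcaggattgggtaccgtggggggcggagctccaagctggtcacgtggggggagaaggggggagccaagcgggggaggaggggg
Sprr1a: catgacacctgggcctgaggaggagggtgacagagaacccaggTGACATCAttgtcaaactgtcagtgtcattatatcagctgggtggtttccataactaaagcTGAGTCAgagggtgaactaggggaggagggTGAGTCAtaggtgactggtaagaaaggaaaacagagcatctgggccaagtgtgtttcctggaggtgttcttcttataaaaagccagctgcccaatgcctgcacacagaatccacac

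RefSeq windows of 300 bases (250 before and 50 after the start) were matched for 8 of the 10 genes, and those of *Gap43* and *Stmn4* were not analysed here. Both strands were searched. TGACATCA, a variant site of ATF and JUN dimers, was present in 4 of the 8 windows, those of *Jun*, *Sox11*, *Klf6* and *Sprr1a*, and in 3.62% of all 32851 promoter windows. TGACTCA, the AP-1 site, was present only in *Sprr1a*, at 2 positions on the minus strand of the gene, and in 5.2% of all windows. *Atf3* held TGATGCAA, the element bound by Atf4 and its partners, on its minus strand, as did 0.895% of all windows. The full cAMP response element TGACGTCA (1.79% of all windows) and the serum response element (0.0639%) were in 0 of the 8 windows, and *Gadd45a*, *Gal* and *Ecel1* matched none of the motifs. These matches describe letters alone. Of the 4 genes that share TGACATCA, *Sprr1a* was called higher in *Ash1L* shRNA samples and *Jun*, *Sox11* and *Klf6* were not.

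Counts per sample summed to between 14251190 and 35764874, control sample 1 being the shallowest, where 1 count corresponded to 0.0708 CPM (counts relative to the TMM-scaled library size). *Ash1l* itself had 245 and 290 CPM in the control samples and 216 and 138 CPM in the *Ash1L* shRNA samples, differing by -0.60 ± 0.22 (standard error, SE) on the log2 scale, called lower without adjustment but with an adjusted p of 0.275 in edgeR's quasi-likelihood test. That call was lost in each fit without control sample 1 (-0.71), control sample 2 (-0.48) or *Ash1L* shRNA sample 2 (-0.31). *Ash1L* shRNA sample 2 stood farther from the controls than sample 1 for 80.8% of all genes called higher. Over all genes tested, 8.61% were called higher and 8.28% lower, beside which the following marker counts stand. Of 8 excitatory neuron markers, 4 were called lower and 0 higher, and their summed level was 2553 and 3037 CPM in control and 2346 and 1975 CPM in *Ash1L* shRNA samples. Among glia, 6 of 8 astrocyte markers were called lower (5116 and 5386 against 4025 and 2929 CPM in sum), 0 of 8 microglia markers were called (740 and 764 against 939 and 385 CPM), 3 of 8 reactive glia markers were called higher (528 and 586 against 650 and 621 CPM) and 1 of 8 oligodendrocyte markers was called lower. Of the 5 B and plasma cell markers tested, 5 were called lower (17.1 and 21.5 against 2.19 and 0.820 CPM), as were 5 of 7 T cell and 2 of 4 neutrophil and monocyte markers. In the remaining lists, the called markers were 0 of 8 for endothelial cells, 2 higher and 2 lower of 8 for leptomeningeal fibroblasts, 3 lower of 8 for interneurons, 1 lower of 8 for neuroblasts, and 3 higher and 1 lower of 7 for striatal neurons. The part of these cell types in the results on the 10 genes was not tested.

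The comparison of *Ash1L* shRNA with control samples asked which injury-associated genes move with *Ash1L* knockdown. *Atf3*, *Gadd45a*, *Sprr1a*, *Gal* and *Ecel1* were called higher (UP, meaning an unadjusted P under 0.05 together with a change of 1.2-fold or more, which is how the study defines it), by 3.09-fold for *Gadd45a* and more for the others. *Jun*, *Sox11*, *Klf6*, *Gap43* and *Stmn4* were not called, and no gene of the 10 was called lower. The 5 of 10 UP genes stand beside 8.61% of all 16232 genes tested, and the DOWN genes were 8.28% of all. The 10 genes were chosen with earlier results of these data known, so the shares over all genes are given for description only. *Sprr1a* and *Gal* entered the test only through their level in *Ash1L* shRNA samples, and of the 8 genes that the controls alone would have kept, 3 were UP. Normalized counts of both *Ash1L* shRNA samples lay above both controls for 7 of the 10 genes, against 26.5% of all genes tested. A log2 fold change of at least 1 was found for 6 of the 10, *Jun* with the UP genes, against 4.4%. Both counts include *Sprr1a* and *Gal*. With p-values adjusted by Benjamini-Hochberg across every tested gene, 0 of the 10 passed 0.05 in edgeR's test, in which 1 of 16232 genes (0.00616%) did and 2746 had an unadjusted p under 0.05. With DESeq2, the tool the study used, the same 5 genes were UP (7.55% of all genes), 0 were DOWN (7.79% of all genes) and 4 of them, all but *Gal*, had an adjusted p under 0.05, as did 1.6% of all genes in that direction. With 2 samples per group, the smallest two-sided p of an exact permutation test is 0.333. The plot of each sample's level shows the 10 genes side by side.

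**Figure D1:**
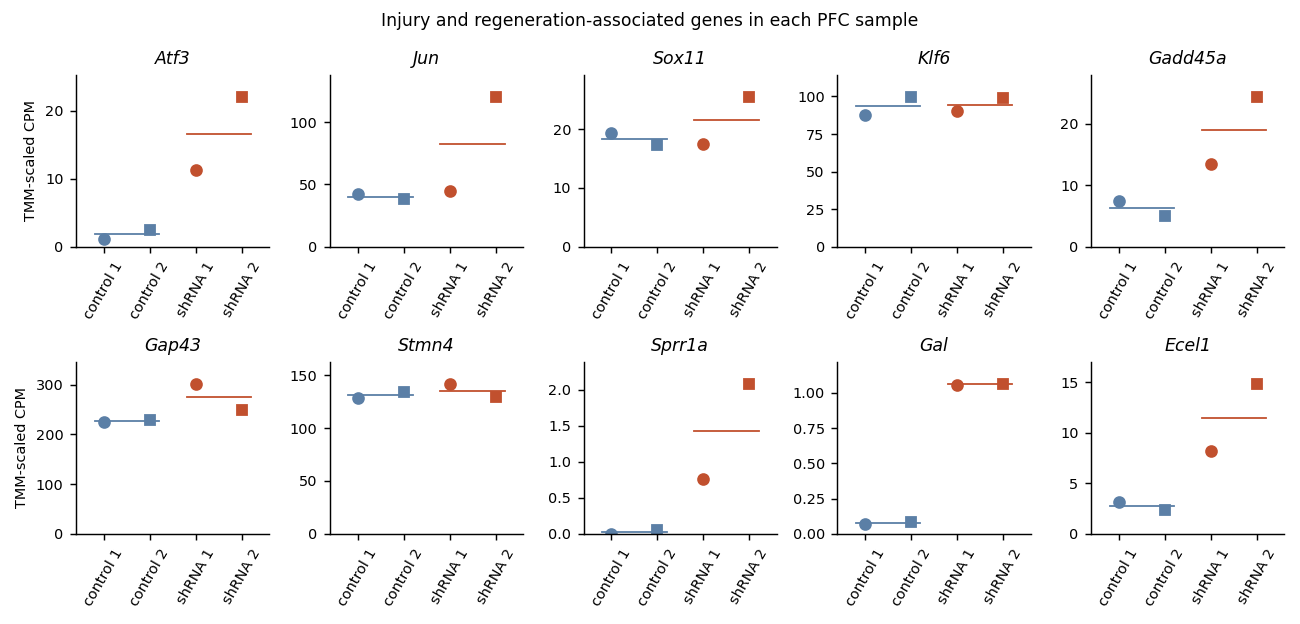
Level of each gene in each sample, in TMM-scaled CPM on a linear axis from 0. Blue points are control and orange points *Ash1L* shRNA samples (circle, sample 1, square, sample 2), and horizontal lines are group means. *Atf3*, *Gadd45a*, *Sprr1a*, *Gal* and *Ecel1* lie well above the controls in both *Ash1L* shRNA samples, *Jun* mainly in sample 2, and *Klf6*, *Stmn4* and *Sox11* overlap.

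Among the 4 transcription factors of the 10 genes, *Atf3* (ENSMUSG00000026628, chromosome 1 from 191170296 to 191218039, mm10) showed the largest change. It had 16 and 85 counts in control and 307 and 457 counts in *Ash1L* shRNA samples, or 1.13 and 2.42 CPM against 11.2 and 22.0 CPM. The groups were far apart, while the 2 controls also differed 2.14-fold, with a counting interval of 1.24 to 3.91. The fitted change was 8.76-fold, or 3.13 ± 0.47 (SE) on the log2 scale, with an adjusted p of 0.240 in edgeR's quasi-likelihood test and 6.9e-09 in DESeq2. With any 1 sample left out, its log2 fold change stayed between 2.56 and 3.86.

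*Jun* (ENSMUSG00000052684, chromosome 4 from 95049034 to 95052222), the AP-1 subunit that partners Atf3, did not follow *Atf3* in both samples. Its levels were 41.9 and 38.5 CPM in control samples, 44.4 CPM in *Ash1L* shRNA sample 1 and 120 CPM in sample 2. Sample 1 exceeded the higher control by little, whereas sample 2 was 2.71 times sample 1 (counting interval 2.53 to 2.90). On the log2 scale its fold change was 1.04 ± 0.48 (SE), adjusted p 0.344 in edgeR's quasi-likelihood test. It was 0.15 without *Ash1L* shRNA sample 2, and 1.58 without *Ash1L* shRNA sample 1, where *Jun* was called UP. *Jun* was also called UP by edgeR's likelihood ratio test on all 4 samples, at 1.04. The annotated antisense gene *Junos* overlaps *Jun* and is not among the symbols of the count tables, so it has no value here.

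*Sox11* (ENSMUSG00000063632, chromosome 12 from 27334264 to 27342574), a SoxC factor of immature and regrowing neurons, had 19.4 and 17.3 CPM in control samples and 17.5 and 25.5 CPM in *Ash1L* shRNA samples. The groups overlapped, since *Ash1L* shRNA sample 1 lay between the controls. Its log2 fold change was 0.23 (standard error 0.21, adjusted p 0.598, edgeR's quasi-likelihood test), and it turned to -0.06 without *Ash1L* shRNA sample 2 and rose to 0.47, with a call of UP, without sample 1. *Klf6* (ENSMUSG00000000078, chromosome 13 from 5861482 to 5870394), a zinc finger factor of the regeneration program that vessels and microglia also express, had 87.7 and 99.7 CPM in control and 90.6 and 98.7 CPM in *Ash1L* shRNA samples. Both knockdown values of *Klf6* fell inside the range of the controls. Its log2 fold change of 0.01 (standard error 0.12) was the smallest of the 10 genes, and its direction changed in 2 of the fits with 1 sample left out.

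*Gadd45a* (ENSMUSG00000036390, chromosome 6 from 67035096 to 67037457) encodes a stress sensor that binds cell cycle and MAP kinase proteins and is induced in injured sensory neurons. It had 7.44 and 4.99 CPM in control samples and 13.5 and 24.4 CPM in *Ash1L* shRNA samples. Both *Ash1L* shRNA samples lay above the higher control, and sample 2 was 1.81 times sample 1 (counting interval 1.58 to 2.07). The fitted change was 3.09-fold, or 1.63 ± 0.35 (SE) on the log2 scale, with an adjusted p of 0.250 in edgeR's quasi-likelihood test and 0.00165 in DESeq2. The noncoding gene *E230016M11Rik* overlaps *Gadd45a* on the opposite strand, and the counting's strand setting is not given in the sources used here. Its level was 3.75 and 3.82 CPM in control and 5.48 and 6.13 CPM in *Ash1L* shRNA samples, below that of *Gadd45a* in every sample. *E230016M11Rik* was itself called UP, by 1.53-fold, and its part in the counts of *Gadd45a* was not tested.

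Of the growth cone and structural genes, *Gap43* and *Stmn4* were abundant and were not called, and *Sprr1a* was scarce. *Gap43* (ENSMUSG00000047261, chromosome 16 from 42248442 to 42340651), the membrane phosphoprotein of growing axon tips, had 224 and 229 CPM in control and 301 and 249 CPM in *Ash1L* shRNA samples. The controls were within counting error of each other, and both knockdown samples were higher, sample 1 more so than sample 2. The difference was 0.28 ± 0.13 (SE) on the log2 scale, with adjusted p 0.335 in edgeR's quasi-likelihood test. It was called UP, at 0.41, without *Ash1L* shRNA sample 2, and under library-size scaling, at 0.32.

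*Stmn4* (ENSMUSG00000022044, chromosome 14 from 66344296 to 66361680), a stathmin that binds tubulin, had 128 and 135 CPM in control and 141 and 129 CPM in *Ash1L* shRNA samples. The groups overlapped, and the fold change on the log2 scale was 0.04 ± 0.11 (SE). *Sprr1a* (ENSMUSG00000050359, chromosome 3 from 92483952 to 92485895), a small proline-rich protein of the epidermal envelope that injured neurons also make, had 0 and 2 counts in control and 21 and 43 counts in *Ash1L* shRNA samples. The 0 counts of control sample 1 allow up to 0.213 CPM, below the 0.767 and 2.07 CPM of the *Ash1L* shRNA samples. Summed over samples and scaled by depth, *Sprr1a* was 32.7 times higher in *Ash1L* shRNA samples, with a 95% counting interval of 8.70 to 276 that covers counting error only. Its adjusted p was 0.250 in edgeR's quasi-likelihood test and 0.0216 in DESeq2.

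The secreted and membrane proteins *Gal* and *Ecel1* were both UP. *Gal* (ENSMUSG00000024907, chromosome 19 from 3409915 to 3414544), the precursor of the neuropeptide galanin, had 1 and 3 counts in control and 29 and 22 counts in *Ash1L* shRNA samples. These correspond to 0.0708 and 0.0855 CPM in control and 1.06 CPM in each *Ash1L* shRNA sample, so that *Gal* was the one UP gene whose level in sample 2 did not exceed that in sample 1 by more than counting error (ratio 1.00, interval 0.549 to 1.81). Summed over samples, it was 13.0 times higher, with a counting interval of 4.79 to 49.7. The adjusted p of *Gal* was 0.240 in edgeR's quasi-likelihood test and 0.0559 in DESeq2.

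*Ecel1* (ENSMUSG00000026247, chromosome 1 from 87147655 to 87156521), a neuronal membrane peptidase also known as DINE for its induction in damaged neurons, had 3.12 and 2.39 CPM in control and 8.22 and 14.8 CPM in *Ash1L* shRNA samples. No control came near either knockdown sample. The fitted change of *Ecel1* was 4.23-fold, or 2.08 ± 0.35 (SE) on the log2 scale, with an adjusted p of 0.240 in edgeR's quasi-likelihood test and 9.9e-05 in DESeq2. Left out in turn, single samples moved it between 1.61 and 2.45.

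Per kilobase of exon, the 10 genes spanned a wide range of levels in control PFC. *Gap43* was highest at a mean of 149 CPM per kb, followed by *Stmn4* at 68.6, *Klf6* at 21.3, *Jun* at 12.6, *Gadd45a* at 3.52 and *Sox11* at 2.21 CPM per kb. *Atf3* at 0.826 and *Ecel1* at 0.787 CPM per kb overlapped in their control samples, while *Gal* at 0.0992 and *Sprr1a* at 0.0354 CPM per kb rested on 4 and 2 counts over both controls. The 5 UP genes included the 4 lowest. Of these, *Sprr1a* and *Gal* entered the test only through their level in *Ash1L* shRNA samples. Their place among the UP genes therefore follows in part from the filter. In *Ash1L* shRNA samples *Gap43* and *Stmn4* still led, and *Atf3*, at 7.72 CPM per kb, exceeded *Sox11*, at 2.59, although it had been below *Sox11* in both controls. *Jun* and *Klf6*, *Gadd45a* and *Atf3*, *Ecel1* and *Sox11*, *Sox11* and *Sprr1a*, and *Sprr1a* and *Gal* were pairs of neighbours whose *Ash1L* shRNA samples overlapped or crossed.

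The 2 *Ash1L* shRNA samples did not differ from the controls to the same extent. Against the control mean, on the scale of log2(normalized count + 1), *Atf3* was 2.73 higher in sample 1 and 3.70 in sample 2. The corresponding differences were 1.57 and 2.42 for *Ecel1*, 1.14 and 1.99 for *Gadd45a*, and 3.67 and 5.06 for *Sprr1a*. *Gal* was 3.21 higher in each. The level was higher in sample 2 than in sample 1 for 8 of the 10 genes, though for *Gal* hardly so, the exceptions being *Gap43* (0.41 and 0.13) and *Stmn4* (0.11 and -0.02). For 4 of the 5 UP genes the counts of sample 2 exceeded those of sample 1 by more than counting error. Over all genes called UP, the medians were 0.49 in sample 1 and 0.77 in sample 2. Each of the 5 UP genes lay above the 95th percentile of all tested genes in both samples. That percentile was 0.78 in sample 1 and 1.19 in sample 2. The 5 genes were called from the same values, so this position follows in part from the call.

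**Figure D2:**
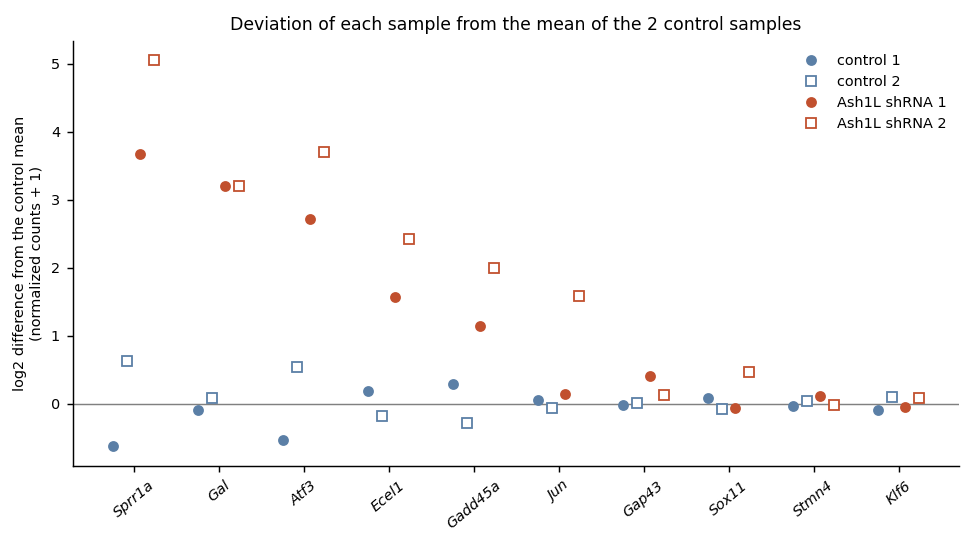
Log2 difference of each sample from the mean of the 2 control samples, computed on normalized counts with 1 added, with genes ordered by fitted fold change. Blue symbols are controls, orange symbols *Ash1L* shRNA samples, filled circles sample 1 and open squares sample 2. *Sprr1a*, *Gal*, *Atf3*, *Ecel1* and *Gadd45a* are separated from the controls in both *Ash1L* shRNA samples, and *Jun* in sample 2 far more than in sample 1.

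Other genes of the injury response were read from 3 lists. The first held 33 transcription factors and members of the DLK-JNK pathway, of which 32 were tested. Of the 32, 4 were UP and 0 DOWN, beside 8.61% and 8.28% of all genes, with a median log2 fold change of 0.25 against 0.00 for all genes. The UP genes were *Atf4*, the effector of the integrated stress response (95.8 and 97.9 CPM in control, 128 and 157 CPM in *Ash1L* shRNA samples), *Ets2* (103 and 93.9 against 116 and 158 CPM), *Crem*, a factor activated by cAMP (20.5 and 18.8 against 26.2 and 39.9 CPM), and *Myc* (2.48 and 2.91 against 4.82 and 5.45 CPM). For each of these genes, both *Ash1L* shRNA samples exceeded the higher control. The mRNAs of kinases upstream of *Jun*, taken outside the naming rule after their values were seen, were not called. Kinase activity was not measured. *Map3k12*, which encodes DLK, had 111 and 107 CPM in control and 101 and 88.9 CPM in *Ash1L* shRNA samples, and its substrate kinase *Map2k4* had 244 and 188 against 252 and 270 CPM. The JNK gene *Mapk8* had 177 and 194 against 166 and 141 CPM. In *Map3k13*, *Map2k7*, *Mapk9* and *Mapk10* the groups overlapped.

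The 6 largest fold changes of this list were not called in edgeR's test, and each was higher in *Ash1L* shRNA sample 2 than in any other sample. These genes were chosen for description after their values were seen. *Fos*, an AP-1 subunit induced by neuronal activity, had 39.3 and 27.5 CPM in control samples, 27.9 CPM in *Ash1L* shRNA sample 1 and 630 CPM in sample 2. *Fosb* had 10.8 and 7.10 CPM in control, 8.91 CPM in sample 1 and 142 CPM in sample 2, and *Junb* 54.7 and 43.3, 36.5 and 271 CPM. *Klf4* had 3.26 and 2.65 CPM in control, 2.88 CPM in sample 1 and 22.8 CPM in sample 2. In these 4 genes, sample 1 lay within or below the range of the controls. *Gadd45b* and *Gadd45g*, paralogs of *Gadd45a*, lay above both controls in sample 1 as well, at 14.9 and 14.6 CPM against at most 12.3 and 8.41 CPM, and reached 49.8 and 103 CPM in sample 2. Sample 2 was also the one in which *Jun* was high. *Atf3*, *Gal*, *Ecel1*, *Sprr1a* and *Gadd45a* also differed from the controls in sample 1. They were called UP from these same values, so their difference in both samples follows in part from the call. DESeq2 called *Fos*, *Fosb* and *Gadd45g* UP, and with sample 1 left out edgeR's count of UP genes in this list was 16.

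**Figure D3:**
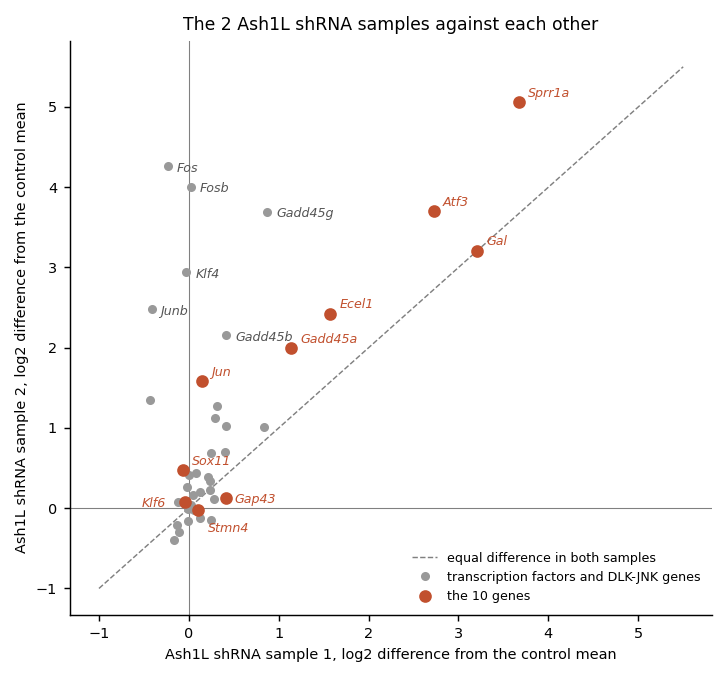
Log2 difference from the control mean (normalized counts with 1 added) in *Ash1L* shRNA sample 1 on the horizontal axis and sample 2 on the vertical axis. Orange points are the 10 genes, grey points the tested transcription factors and DLK-JNK genes, and the dashed line marks equal differences. *Fos*, *Fosb*, *Klf4* and *Junb* lie near or below 0 in sample 1 and above 2 in sample 2, *Jun* lies above the line at 0.15 and 1.58, and *Gal* lies on the line.

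The second list held 28 genes of the growth cone and axon cytoskeleton, of which 27 were tested. There, 1 gene was UP and 2 were DOWN, beside 8.61% and 8.28% of all genes, 11 genes had both *Ash1L* shRNA samples below the lower control (26.8% of all genes), and the median log2 fold change was -0.16. *Tubb6*, a beta-tubulin isotype that is induced in injured neurons, was UP with 13.2 and 7.70 CPM in control and 18.2 and 45.0 CPM in *Ash1L* shRNA samples. *Mapt*, which encodes the axonal protein tau, was DOWN with 530 and 569 against 443 and 348 CPM, and *Dcx*, a microtubule protein of young neurons, was DOWN with 28.7 and 35.3 against 23.95 and 20.9 CPM. The stathmin relatives of *Stmn4*, outside the naming rule like the other uncalled genes here, were not called in edgeR's test, and DESeq2 called *Stmn1* DOWN. *Stmn2* had 304 and 269 CPM in control and 318 and 343 CPM in *Ash1L* shRNA samples, *Stmn3* had 357 and 383 against 334 and 273 CPM, and *Stmn1* had 428 and 428 against 386 and 170 CPM. *Basp1*, a growth cone protein related in function to *Gap43*, had 291 and 317 against 271 and 238 CPM. *Sprr1b*, the nearest relative of *Sprr1a* in the list, had 0 counts in each of the 4 samples.

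The third list held 32 peptides, cytokines, receptors and surface proteins, of which 30 were tested, 11 were UP (8.61% of all genes) and 1 was DOWN (8.28% of all genes). The controls alone would not have kept 3 of the 30 genes in the test, and 1 of these, *Galr1*, was UP. The counts and the median of this list include these 3 genes. The median log2 fold change was 0.60, and in 17 of the 30 both *Ash1L* shRNA samples exceeded the higher control (26.5% of all genes). By level, the first UP genes were *Il6st*, the gp130 subunit shared by LIF and IL-6 receptors (128 and 126 CPM in control, 155 and 189 CPM in *Ash1L* shRNA samples), and *Adcyap1*, the precursor of the neuropeptide PACAP (34.9 and 31.2 against 74.1 and 60.9 CPM). They were followed by the laminin receptor subunit *Itga7* (13.7 and 15.5 against 23.7 and 33.0 CPM) and by *Tnfrsf12a*, the TWEAK receptor Fn14 (5.24 and 4.25 against 16.4 and 44.5 CPM). *Cckbr*, a receptor for cholecystokinin, was DOWN with 71.9 and 66.3 against 51.3 and 54.9 CPM. In edgeR's quasi-likelihood test the adjusted p of every gene of the 3 lists lay above 0.05. In DESeq2 it was under 0.05 for *Tnfrsf12a* (3.0e-07), *Adcyap1* (3.1e-05), *Tubb6* (0.0111), *Itga7* (0.0132) and *Atf4* (0.0457) among the genes named by level, and above 0.05 for the other genes so named.

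The receptors of galanin and the relatives of *Ecel1* were chosen after their values were seen. *Galr1* had 1 and 2 counts in control and 23 and 33 counts in *Ash1L* shRNA samples, with an adjusted p of 0.240 in edgeR's quasi-likelihood test and 0.0325 in DESeq2. Its CPM rose from 0.0708 and 0.0570 to 0.840 and 1.59. *Galr2* was not called, with 0.567 and 0.770 CPM in control and 1.205 and 1.25 CPM in *Ash1L* shRNA samples, and *Galr3* was too low to be tested. Among the relatives of *Ecel1*, *Ece1* had 90.2 and 79.5 against 95.2 and 104 CPM and *Ece2* 23.9 and 19.8 against 21.4 and 27.5 CPM, neither of them called.

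**Figure D4:**
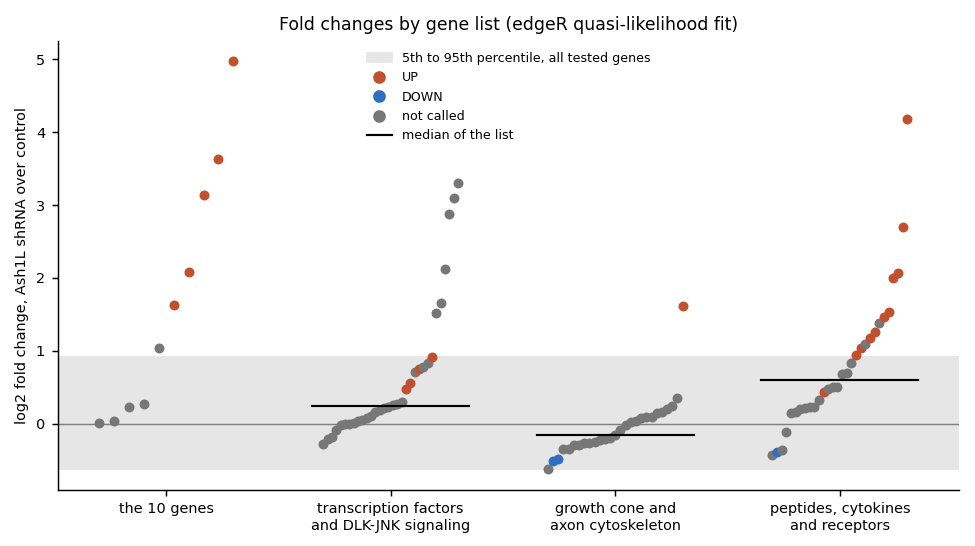
Log2 fold changes of *Ash1L* shRNA over control samples for the 10 genes and for the tested genes of the 3 lists, from edgeR's quasi-likelihood fit. Each point is a gene, orange for UP, blue for DOWN and grey for not called, black lines are list medians, and the grey band spans the 5th to 95th percentile of all 16232 genes tested, from -0.62 to 0.91. The 5 UP genes of the 10 lie above the band, as do 10 of the 11 UP genes of the peptide and receptor list. Of the 4 UP genes of the transcription factor list, 1 lies above it. Genes that were not called also lie above it, among them *Jun* and 6 of the transcription factor list. Calls and fold changes come from the same fit.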

How the data were processed

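The authors deposited unnormalized read counts, listed by gene symbol. They used RNA STAR to align paired-end reads of stranded, ribosomal RNA-depleted libraries to mm10, and featureCounts to count. The labels also name Cutadapt and TopHat2, and the strand and multiple-mapping settings are not given in the sources used here. The submitters' processing notes name STAR, featureCounts and DESeq2. The replicate pairs exceeded counting error, with a chi-square per degree of freedom of 14.8 for control and 42.3 for *Ash1L* shRNA samples. The labels call the samples biological duplicates, and the paper pools mice within a sample. P-values rest on the spread between these samples, with the estimate for each gene moderated by those of the other genes.

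Genes were filtered with filterByExpr (minimum count 10), scaled by TMM and tested with glmQLFit and glmQLFTest with robust estimation in edgeR 4.0.16 (R 4.3.3), *Ash1L* shRNA against control, and adjusted over the 16232 genes tested. Standard errors were taken from the log2 fold change and the F statistic. DESeq2 1.42.0 was an alternative. Counting intervals are 95% conditional exact binomial intervals, and the limit for a count of 0 is 3 counts. Gene positions and exonic lengths are from GENCODE vM21 (GRCm38, the mm10 build), and promoters from RefSeq. The members, lists and motifs were chosen with earlier results of these data known. All 10 members are described, with up to 4 called genes per list and direction by mean level, and other genes only where the text says that they were chosen afterwards. Alternatives covered the tool, scaling, filter, fold limit, replicate block and each sample left out.

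Nothing in the labels ties same-numbered samples together. Their deviations from the group means correlated at -0.11 across genes, and the numbers were not treated as pairs.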

Additional observations from a re-analysis of the deposited data

How the results depend on the processing

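The same 5 of the 10 genes were UP in 12 of 13 alternatives. In the other, at least 10 counts in every sample, *Sprr1a* and *Gal* were not tested and 3 were UP, and with each sample left out the number was 5 to 7. Left out singly, samples moved the counts over all genes from 423 to 2368 UP and from 306 to 2718 DOWN, the highest without *Ash1L* shRNA sample 1 and the lowest without control sample 2. At a 1.5-fold limit they were 765 UP and 491 DOWN. Adding a replicate block by number kept the same 5 genes UP, with 1052 UP and 1020 DOWN over all genes. A block that crossed the numbers, added once the data had been seen, gave 1541 and 1736, with 5 of the 10 genes UP. The transcription factor list had 7 UP genes with DESeq2, 9 with the likelihood ratio test, 2 at 1.5-fold, and 1 to 16 with a sample left out, and its DOWN genes numbered 1 with crossed pairs and 0 to 2 with a sample left out. The cytoskeleton list had 0 UP without a filter and 0 to 3 with a sample left out, and 4 DOWN with crossed pairs, 0 at 1.5-fold and 0 to 8 with a sample left out. The peptide and receptor list had 7 to 15 UP and 0 to 3 DOWN with a sample left out, and 0 DOWN at 1.5-fold. *Ash1l* ran from -0.97 to -0.31 with a sample left out and lost its call of DOWN in each of these but the fit without *Ash1L* shRNA sample 1. Directions reversed for *Sox11* (-0.060 without *Ash1L* shRNA sample 2, range -0.060 to 0.47), *Klf6* (-0.065 without control sample 1 and -0.048 without *Ash1L* shRNA sample 2, range -0.065 to 0.11) and *Stmn4* (-0.028 without *Ash1L* shRNA sample 1, range -0.028 to 0.11). With *Ash1L* shRNA sample 1 left out, where the lone sample is assumed to vary like the controls, 6 of the 10 genes, *Jun* among them, and 2502 of all genes passed 0.05 after adjustment in edgeR's test. A pseudocount of 5 lowered the differences of *Sprr1a* to 2.07 and 3.30, and those of *Gal* to 2.16 and 2.16. The cause of these changes was not tested.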
